A study of Mus musculus with 18 samples.

Results

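The targets described here lie in a ribosomal RNA region of mouse chromosome 17 (chr17:39842001-39849001, mm10, counted from 1), which holds the 18S gene Rn18s-rs5. All chimeric reads on this chromosome whose target part starts within those bases were taken, whatever miRNA they carried. They numbered 32680 of 1153545 reads in the series (2.83%), on 5692 of 820682 distinct positions and with 331 miRNAs. All 32680 lay on the plus strand and 0 on the minus strand.

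The reads come from CLEAR-CLIP, in which Argonaute 2, the protein that carries miRNAs, is pulled down from UV-crosslinked cells and each miRNA is ligated to the RNA it sits on, so that a chimeric read names both partners. The cells were mouse keratinocytes grown in E-low calcium medium, 18 libraries in 2 sets. In set 1 there were 3 libraries of miR-200 double knockout (DKO) cells and 6 of control cells with K14-Cre alone, a recombinase driven by a promoter of basal keratinocytes. In set 2 there were 3 libraries of DKO cells, 3 of miR-200 inducible cells treated for 24 hours with doxycycline at 3 ug/ml (induced) and 3 of inducible cells without doxycycline (uninduced), which are the controls of that set, so DKO and control cells of set 2 differ in origin as well as in the knockout. The files pool each group's libraries without library names, so each group is 1 sample here. No test between groups was made, and intervals are exact 95% intervals that cover counting error only. The pools held 48662 (set 1 DKO), 161692 (set 1 control), 210003 (set 2 DKO), 419117 (set 2 induced) and 314071 (set 2 uninduced) chimeric reads. The epithelial miRNAs miR-205-5p, miR-203-3p and miR-31-5p together held 7.26% to 15.0% of the reads of a pool, and 4 mesenchymal miRNAs 0.00286% to 0.0520%, 3 blood miRNAs 0% to 0.00371% and 2 neural miRNAs 0.00446% to 0.0329%.

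18S is the RNA backbone of the small ribosomal subunit. It is cut from a long precursor in which an external transcribed spacer precedes it, and the genes lie in many near-identical copies, so the copy a read came from cannot be told from its place on chromosome 17. A miRNA guides Argonaute mainly through its seed, bases 2 to 8 from its 5′ end. Ribosomal RNA is the most abundant RNA of the cell and is often recovered in Argonaute pulldowns.

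The miRNAs that carry the findings below are shown with the seed in capitals, as listed by RefSeq for GRCm38.p6, 5′ to 3′. The miR-29 family shares its seed and was ligated upstream of 18S.
miR-29a-3p: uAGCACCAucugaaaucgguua
miR-29b-3p: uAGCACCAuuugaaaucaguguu
miR-29c-3p: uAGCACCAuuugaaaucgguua

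The next pairs also share a seed within each pair. The members of the first pair led at different places on 18S, and those of the other pairs led in the same 50 bases. Other miRNAs with a shared seed went both ways. On 18S miR-29a-3p and miR-29b-3p both led at 101 to 150. miR-125a-5p led at 401 to 450, and miR-125b-5p, with the same seed, at 1151 to 1200. miR-200b-3p, miR-200c-3p and miR-429-3p share a seed and each led in a different bin.
miR-25-3p: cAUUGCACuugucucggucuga
miR-92a-3p: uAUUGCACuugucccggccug
miR-200a-3p: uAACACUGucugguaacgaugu
miR-141-3p: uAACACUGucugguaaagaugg
let-7a-5p: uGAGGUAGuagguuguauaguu
let-7e-5p: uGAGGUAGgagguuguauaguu

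The following miRNAs had different seeds and each had a preferred stretch of the gene.
miR-28a-5p: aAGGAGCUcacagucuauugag
miR-298-5p: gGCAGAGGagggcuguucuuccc
miR-222-3p: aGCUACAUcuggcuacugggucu
miR-31-3p: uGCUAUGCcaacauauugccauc
miR-125a-5p: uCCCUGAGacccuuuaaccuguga
miR-21a-5p: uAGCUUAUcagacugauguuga
miR-205-5p: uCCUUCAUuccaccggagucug

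For miR-5099, the most abundant miRNA name of the region, the tables used here hold only the hairpin, from the plus strand of Mir5099 at chr12:36816205-36816278 (GRCm38.p6).
mir-5099 hairpin: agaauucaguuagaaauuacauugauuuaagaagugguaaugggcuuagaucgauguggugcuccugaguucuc

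The name 18S covers only part of these targets. By the midpoint of the target part, 20184 reads (61.8%) on 4863 positions lay on annotated 18S (Rn18s-rs5 in RefSeq, chr17:39846354-39848202, 1849 bases, listed as a pseudogene). Another 11885 reads (36.4%) on 413 positions lay in a narrow stack about 3.3 kb before the gene, where the table has no gene. The remaining reads were 517 between stack and gene and 94 after the gene. The last 91 bases of 18S overlap the noncoding RNA gene AY036118, annotated on the minus strand, and 164 reads ended up in that overlap, all on the plus strand. Both parts are described separately from here on, a division made after the positions were seen.

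**Figure D1:**
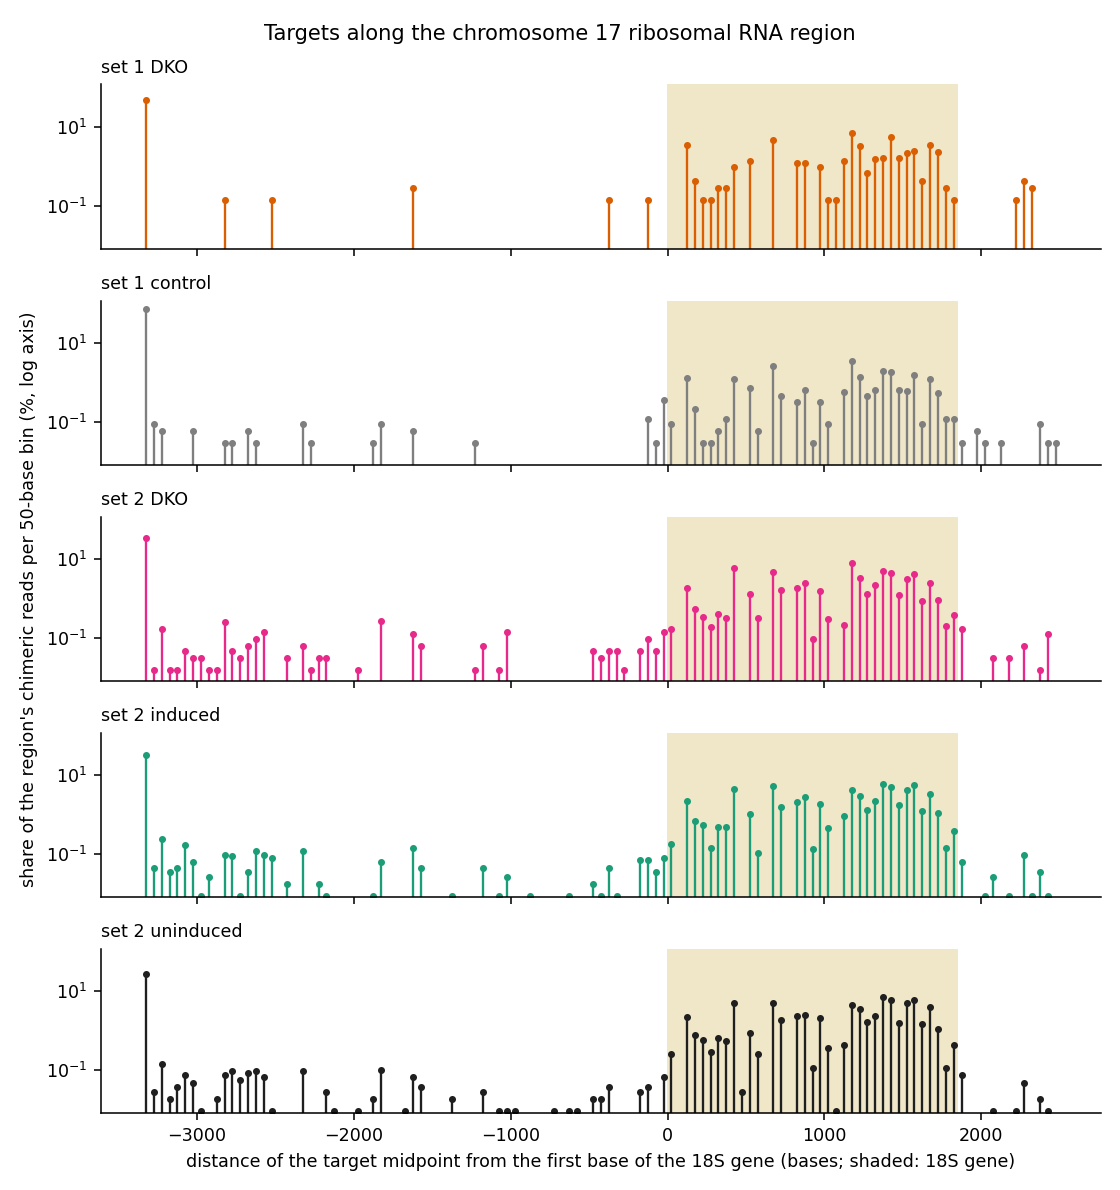
Share of the region's chimeric reads (%, log axis) in bins of 50 bases against distance from the first base of the 18S gene (shaded), 1 panel per pool; bins without reads have no line. In every pool a single bin near 3.3 kb before the gene stands far above the rest, and the remaining reads lie mostly within the gene.

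Outside the mitochondrial genome, no window of the same length held more reads in any of the 5 pools. The region held 718 of 48662 reads in the set 1 DKO pool, or 1.48% (1.37 to 1.59), and 3386 reads in the set 1 control pool, or 2.09% (2.02 to 2.17). In set 2 it held 3.05% (2.98 to 3.12) in the DKO pool, 2.73% (2.68 to 2.78) in the induced pool and 3.41% (3.35 to 3.48) in the uninduced pool. The next window had 682 reads in the set 1 DKO pool, so the region led by 1.05 times there, and it led by 2.29 to 5.63 times in the other 4 pools.

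The upstream stack and 18S divided the region unequally. The stack took 48.6% of the region's reads in set 1 DKO and 75.2% in set 1 control, against 35.2% in set 2 DKO, 33.5% in induced and 27.1% in uninduced. 18S took 49.7% in set 1 DKO and 23.5% in set 1 control, and 62.2% in set 2 DKO, 64.6% in induced and 71.4% in uninduced. Only in the set 1 control pool did the stack hold most of the region's reads.

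The stack was made almost entirely by miR-5099 and the miR-29 family, whose members are known for silencing collagen and other matrix genes. miR-5099 held 94.0% of stack reads in set 1 DKO, 96.0% in set 1 control, 80.4% in set 2 DKO, 45.1% in induced and 46.8% in uninduced. The miR-29 family held 4.30% in set 1 DKO, 3.54% in set 1 control, 17.7% in set 2 DKO, 52.1% in induced and 50.7% in uninduced. All other miRNAs together held 0.511% to 2.79%. The stack thus changed its makeup between pools, with near-equal parts of both in the induced and uninduced pools and miR-5099 far ahead in the other 3.

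The name miR-5099 was read as a partner of this place and hardly of any other. The bases of this place were not available here to set beside the miRNA. Whether the part read as miR-5099 came from that miRNA or from the ribosomal precursor itself was therefore not tested. Of its 7690 reads in the whole series, 7670 (99.74%) had their target here and 20 elsewhere. On 18S it had 0 reads, and of the 36 reads whose target lay in its own gene on chromosome 12, 0 carried it. Among 163 miRNAs with at least 500 reads, the share in a miRNA's leading window had a median of 3.53%, and miR-5099 ranked 1st with 99.7%, followed by miR-712-5p with 99.6% in another window. The targets also began at the same base: 95.7% in set 1 DKO, 93.0% in set 1 control, 93.7% in set 2 DKO, 96.0% in induced and 97.6% in uninduced started at base 39843015, 3339 bases before 18S. Their ends were spread over 33 to 46 bases per pool, and their median length was 39.0 to 54.0 bases.

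The miR-29 family used a place 16 to 18 bases further from the gene. Its leading start was base 39842997, 3357 bases before 18S, in set 1 DKO (73.3% of 15 reads) and set 1 control (42.2% of 90 reads). In set 2 it was base 39842999, 3355 bases before 18S, with 52.4% of 399 reads in DKO, 43.8% of 1996 in induced and 47.5% of 1474 in uninduced. Within 5 bases fell 100% of the starts in set 1 DKO, 98.9% in set 1 control, 99.5% in set 2 DKO and 99.3% each in induced and uninduced.

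**Figure D2:**
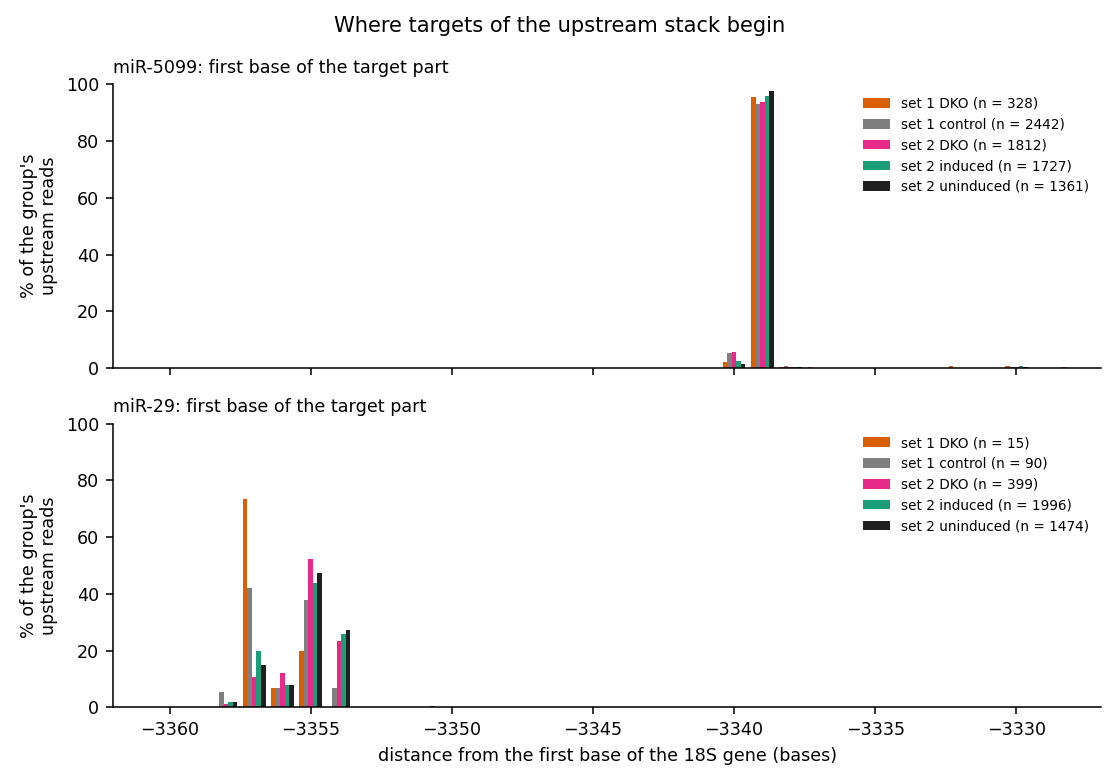
Share of a miRNA's stack reads (%) by the first base of the target part, given as distance from the first base of the 18S gene, for miR-5099 (top) and the miR-29 family (bottom), with 1 bar per pool and the number of reads in the legend. miR-5099 starts pile up at a single base in all 5 pools, and miR-29 starts fall on a few bases 15 to 19 bases further away.

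For miR-29a-3p the stack was a sizeable part of all its targets: 6.43% of its 171 reads in set 1 DKO, 9.29% of 646 in set 1 control, 16.1% of 1635 in set 2 DKO, 14.4% of 9717 in induced and 14.7% of 7251 in uninduced. The rarer miR-29c-3p had 23.1% of 13 reads, 19.2% of 26, 21.6% of 148, 20.7% of 377 and 18.8% of 276 there in the same order of pools. miR-29b-3p had the lowest share of the family, between 0.971% of 103 reads in set 1 DKO and 11.2% of 932 in set 2 DKO. On 18S itself the family had 2 reads in set 1 DKO, 10 in set 1 control, 62 in set 2 DKO, 332 in induced and 291 in uninduced.

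Counts in the stack have a ceiling. Copies with the same position, miRNA and 4-base barcode appear once in the deposited files, so a combination of position and miRNA can count no more reads than there are barcodes. The combination of miR-5099 with a target from 39843015 to 39843070 carried 110 different barcodes in set 1 DKO (43.0% of those possible), 227 in set 1 control (88.7%), 217 in set 2 DKO (84.8%), 231 in induced (90.2%) and 196 in uninduced (76.6%). Of the stack reads, 69.1% in set 1 DKO, 9.47% in set 1 control, 51.1% in set 2 DKO, 38.4% in induced and 46.2% in uninduced recurred in another pool of that lane with identical position, miRNA and barcode. Reuse of a barcode and reads passing between pools cannot be told apart here. On 18S, where no combination had over 67 reads, 4.03% to 9.19% recurred.

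The share of the stack in all reads of a pool was 0.717% (0.644 to 0.796) in set 1 DKO and 1.57% (1.51 to 1.64) in set 1 control, a ratio of 0.456 (0.406 to 0.510). In set 2 it was 1.07% in DKO, 0.914% in induced and 0.925% in uninduced, which gives 1.16 (1.10 to 1.23) for DKO and 0.988 (0.941 to 1.04) for induced over uninduced. The DKO ratios depend on how crowded positions are counted: with each position, strand and miRNA counted once they were 1.14 in set 1 and 0.904 in set 2. Split by miRNA, miR-5099 in the stack stood at 0.446 (0.396 to 0.501) in DKO over control of set 1, at 1.99 (1.85 to 2.14) in DKO over uninduced of set 2 and at 0.951 (0.885 to 1.02) in induced over uninduced. Counted once per position, the set 1 value of miR-5099 was 1.42. The miR-29 family in the stack stood at 0.554 (0.298 to 0.963) in set 1 DKO over control, at 0.405 (0.362 to 0.452) in set 2 DKO over uninduced and at 1.01 (0.948 to 1.09) in induced over uninduced. Outside the region the same family stood at 0.977 (0.850 to 1.12), 0.356 (0.340 to 0.373) and 1.03 (1.00 to 1.06) in these comparisons. In set 2 DKO the family was therefore lower at the stack and outside it alike.

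**Figure D3:**
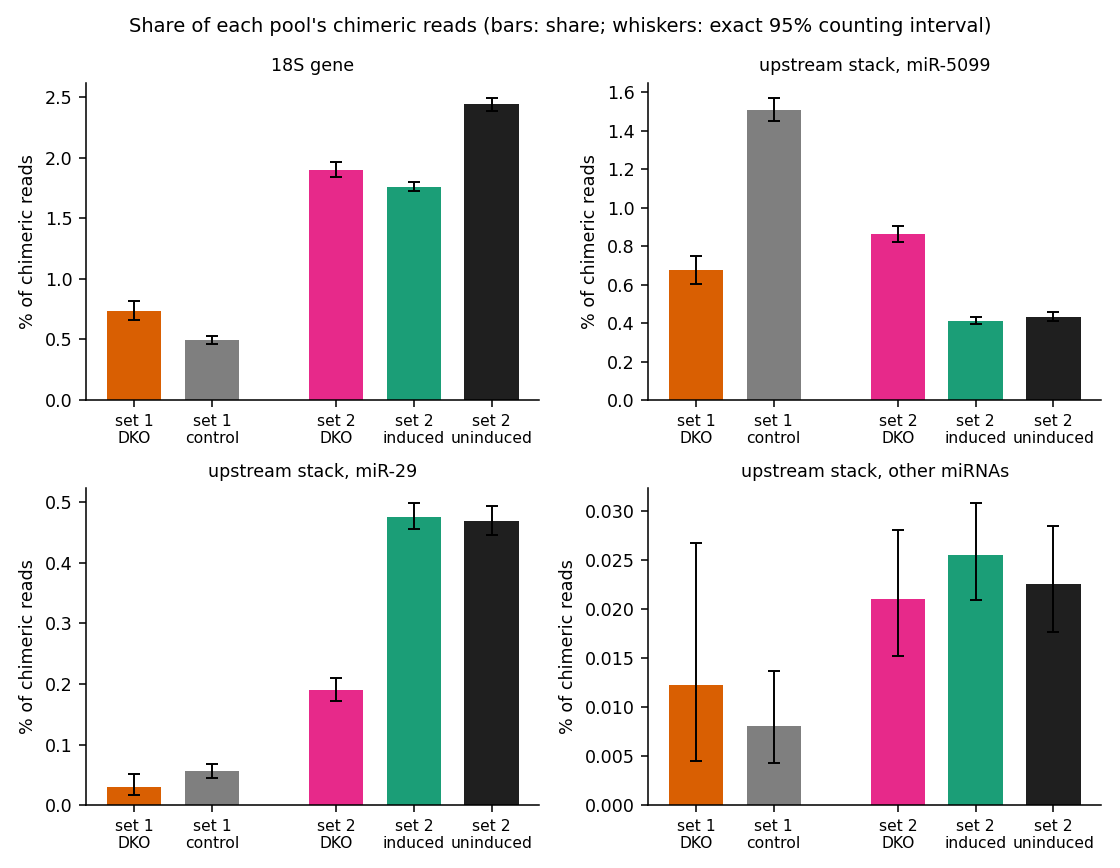
Share of each pool's chimeric reads (%) on the 18S gene and in the upstream stack by miRNA group, with 1 bar per pool and exact 95% counting intervals as whiskers. 18S stands at 0.734% and 0.492% in the set 1 pools and at 1.76% to 2.44% in the set 2 pools, and miR-5099 is highest in set 1 control at 1.51%.

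On 18S itself the share of all reads was 0.734% (0.660 to 0.813) in set 1 DKO and 0.492% (0.458 to 0.527) in set 1 control, a ratio of 1.49 (1.31 to 1.69). It was 1.90% (1.84 to 1.96) in set 2 DKO, 1.76% (1.72 to 1.80) in induced and 2.44% (2.38 to 2.49) in uninduced. The ratios to uninduced were 0.778 (0.748 to 0.808) for DKO and 0.724 (0.701 to 0.747) for induced. Targets on the mitochondrial ribosomal RNAs (mt-Rnr1 and mt-Rnr2) moved the same way in set 1, where their ratio was 1.99 (1.85 to 2.13) in DKO over control. In set 2 they stood at 0.933 (0.912 to 0.955) in DKO and 1.02 (0.996 to 1.03) in induced over uninduced, nearer to 1 than 18S.

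Taken whole, the region passed a 2-fold difference in none of the 3 comparisons. Its ratios were 0.705 (0.649 to 0.764) in set 1 DKO over control, 0.893 (0.866 to 0.921) in set 2 DKO over uninduced and 0.80 (0.779 to 0.821) in induced over uninduced. Of all windows of that length with at least 20 reads in the compared pools, 13.8% were past 2-fold higher and 24.3% past 2-fold lower in set 1 DKO, out of 1042. The shares were 11.7% and 19.9% of 3628 windows in set 2 DKO, and 5.52% and 4.80% of 5874 windows in the induced pool. The set 1 ratio joins opposite movements of stack and gene, and it was 1.19 without 9 miRNAs that were overrepresented in set 1, of which miR-5099 is 1, and 1.35 with each position counted once.

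Targets were not spread evenly along 18S. Of the 37 bins of 50 bases, the leading 8 held 65.0% of 18S reads in set 1 DKO, 65.3% in set 1 control, 62.6% in set 2 DKO, 58.6% in induced and 60.5% in uninduced, while 3 to 8 bins per pool had no read. The part from base 1151 to the end of the gene held 60.5% to 65.8%. As a description over the 37 bins, the profiles of any 2 pools had a Pearson correlation of 0.71 to 0.99. Lowest were set 1 DKO and set 2 uninduced, and highest were induced and uninduced, which are the same inducible cells run in a single lane.

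The bin with the most reads in 3 pools was 1151 to 1200 (chr17:39847504-39847553), with 14.0% of 18S reads (50 of 357) in set 1 DKO, 14.6% (12.2 to 17.2) in set 1 control and 13.1% (12.1 to 14.2) in set 2 DKO. It held 6.37% (5.82 to 6.95) in induced and 490 of 7657 reads in uninduced, both below the other 3 pools. Between 50.5% and 58.0% of its reads started at base 1158, and 12 to 68 miRNAs per pool started there. miR-205-5p, a miRNA of stratified epithelium, was its leading partner in both DKO pools and in set 1 control, with 16 of 50 reads in set 1 DKO, 24 of 116 in set 1 control and 82 of 523 in set 2 DKO. It made 30 of 471 reads in induced and 33 of 490 in uninduced, where miR-125b-5p (75 reads in induced) and miR-21a-5p (72 reads in uninduced) led.

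In the induced and uninduced pools the leading bin was 1351 to 1400. It held 3.36% of 18S reads in set 1 DKO, 8.18% in set 1 control, 8.16% in set 2 DKO, 9.01% (8.37 to 9.68) in induced and 10.2% (9.57 to 10.9) in uninduced. miR-31-5p, abundant in keratinocytes, led there with 94 of 666 reads in induced and 104 of 784 in uninduced. Base 1382 was the leading start in this bin and in the next, 1401 to 1450, in all 5 pools. The remaining named bins were 401 to 450 (1.96% to 9.42% over the pools), 651 to 700 (7.12% to 11.3%), 1501 to 1550 (2.64% to 6.91%) and 1551 to 1600 (5.04% to 8.61%). Base 1574 was the leading start of the last, with 27.8% of 18 reads in set 1 DKO and 41.2% to 47.2% in the other 4 pools.

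Some miRNAs were concentrated in a single bin, and several shared a leading bin. Of 68 miRNAs with at least 50 reads on 18S, the following were chosen after their values were seen, so their leading shares are a description. miR-25-3p, of a cluster related to miR-17-92, had 192 of 241 reads (79.7%) between bases 1451 and 1500, where other miRNAs had 1.41% of theirs. It was 9 of 10 reads in set 1 DKO, 16 of 19 in set 1 control, 26 of 39 in set 2 DKO, 82 of 93 in induced and 59 of 80 in uninduced, so most of its 18S reads lay there in every pool. miR-92a-3p, with the same seed, led instead at 1551 to 1600 with 112 of 298 reads (37.6%), with base 1574 as its most frequent start (77 reads). At 1551 to 1600 miR-92a-3p had 0 of 8 reads in set 1 DKO and 6 of 14 in set 1 control. Over all pools it also had 18 reads (6.04%) in the leading bin of miR-25-3p. miR-28a-5p had 118 of 157 reads (75.2%) between 1401 and 1450, and miR-298-5p 60 of 122 (49.2%) in the same bin.

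At the start of the gene stood miR-222-3p, known in growth control. It had 31 of 74 reads (41.9%) in the bases 1 to 50, where other miRNAs had 0.154% of theirs, a ratio of 272 within this bin. They were 0 of 3 reads in set 1 DKO, 1 of 3 in set 1 control, 7 of 23 in set 2 DKO, 9 of 17 in induced and 14 of 28 in uninduced, so the pattern rests on set 2. The most frequent start of miR-222-3p, with 24 reads, was base -2, so those targets began before the annotated gene.

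miR-21a-5p, the miRNA with most 18S reads of those placed (2481), had 753 (30.4%) between 651 and 700. That was 10 of 21 reads in set 1 DKO, 30 of 51 in set 1 control, 137 of 446 in set 2 DKO, 290 of 921 in induced and 286 of 1042 in uninduced. It led this bin in all 5 pools, with 29.4% to 52.5% of the bin's reads. miR-30b-5p (54 of 121 reads) and miR-30c-5p (96 of 324) led in the same bin, and miR-30d-5p (38 of 122) in the next, 701 to 750.

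miR-125a-5p had 151 of 411 reads (36.7%) between 401 and 450. miR-31-3p (91 of 231) and miR-135b-5p (41 of 102) led between 1351 and 1400, and miR-423-3p (34 of 87) between 1501 and 1550. These last places rest on set 2. In set 1 DKO and control miR-31-3p had 0 of 3 and 1 of 4 reads there, and miR-423-3p 0 of 1 and 0 of 2. miR-135b-5p had 0 of 1 in set 1 control. let-7a-5p (51 of 236) and let-7e-5p (33 of 143), which share a seed, both led between 1251 and 1300 with base 1252 as the most frequent start. Of the let-7 family, let-7b-5p, let-7c-5p and let-7d-5p also led there. let-7f-5p (36 of 235), let-7g-5p (14 of 91) and let-7i-5p (9 of 55) led between 1551 and 1600 instead. In set 1 DKO and control let-7a-5p had 0 of 1 and 1 of 6 reads there, and let-7e-5p 0 of 4 and 0 of 5. miR-22-3p had 61 of 189 reads (32.3%) between 801 and 850, with 0 of 1 in set 1 DKO and 0 of 4 in set 1 control.

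**Figure D4:**
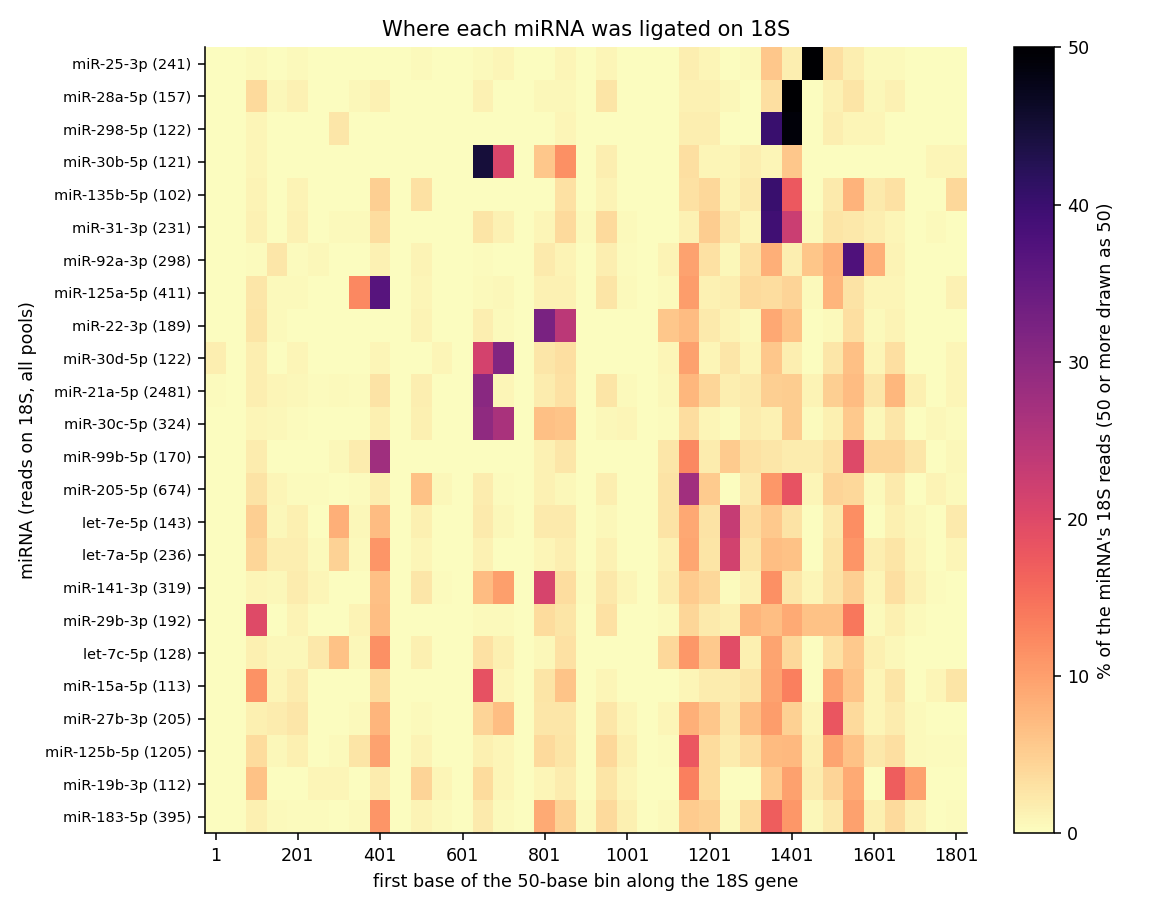
Share of each miRNA's 18S reads (%, all pools together; 50 or more drawn as 50) in 37 bins of 50 bases along the gene, for the 24 most concentrated miRNAs with at least 100 reads on 18S, whose numbers of reads stand in parentheses. miR-25-3p and miR-28a-5p are dark in a single bin each, and lower down the shares spread over the shared bins near 401, 1151, 1351 and 1551.

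The miR-200 family checks the labels on the gene itself. It had 0 reads on 18S in the set 1 DKO pool, a count whose exact interval reaches 0.00758% of the pool, against 42 reads (0.0260%) in set 1 control. In set 2 it had 5 reads (0.00238%) in DKO, 475 (0.113%) in induced and 368 (0.117%) in uninduced. The ratio to uninduced was 0.0203 (0.00656 to 0.0479) in DKO and 0.967 (0.842 to 1.11) in induced. Outside the region these ratios were 0.0543 in DKO and 1.36 in induced. Since 18S as a whole was lower in the induced pool, the family's share of 18S reads was 6.42% (5.88 to 7.01) in induced and 4.81% (4.34 to 5.31) in uninduced. Within 18S the members differed between induced and uninduced, and so they did outside the region. As a share of 18S reads, miR-200a-3p had 35 reads in induced and 15 in uninduced, a ratio of 2.42 (1.29 to 4.76) against 2.17 (2.00 to 2.35) outside the region. miR-200b-3p had 92 reads in induced and 38 in uninduced (2.51, 1.70 to 3.76, against 2.53 outside), and miR-429-3p 58 and 34 (1.77, 1.14 to 2.78, against 2.28). miR-200c-3p had 137 reads in induced and 134 in uninduced (1.06, 0.828 to 1.35, against 1.03), and miR-141-3p 153 and 147 (1.08, 0.854 to 1.36, against 0.978). Set against the rest of its own pool, miR-200c-3p stood on 18S at 1.17 (0.584 to 2.10) in set 1 control, 0.631 (0.529 to 0.747) in induced and 0.616 (0.515 to 0.731) in uninduced, and the DKO pools had 0 reads in set 1 and 1 in set 2.

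miR-200a-3p and miR-141-3p, which share a seed, both led between 801 and 850. miR-200a-3p had 24 of 53 reads there (45.3%), of which 17 of 35 came from induced and 6 of 15 from uninduced. The set 2 DKO pool gave 1 further read. The other members of the family share another seed but led apart. miR-200b-3p led between 1351 and 1400, miR-200c-3p between 1501 and 1550 and miR-429-3p between 851 and 900.

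The miRNAs ligated to 18S were next set against those of the rest of each pool. Counted against all targets outside the region, 23.5% of 170 miRNAs in set 1 DKO, 12.6% of 485 in set 1 control, 13.7% of 255 in set 2 DKO, 16.0% of 319 in induced and 14.5% of 289 in uninduced were past 2-fold higher on 18S. Past 2-fold lower were 60.0%, 79.0%, 38.4%, 43.3% and 37.7% in the same order, where many had 0 reads on 18S. Over the whole region the share past 2-fold higher was 14.6%, 2.46%, 7.78%, 6.88% and 7.93% in this order of pools, and that past 2-fold lower 64.3%, 86.9%, 50.6%, 51.6% and 46.6%. On 18S, 105 miRNAs had 20 reads or more over the pools. This minimum counts reads on 18S itself and leaves out miRNAs rare there, so numbers higher and lower cannot be weighed against each other. Of the 105, 8 were past 2-fold higher in all 5 pools and 2 past 2-fold lower, let-7d-5p and miR-669o-3p. In set 1 these last calls rest on 0 or 1 reads and their intervals include 1: let-7d-5p had 0 reads in DKO (up to 2.98) and 0 in control (up to 1.98), and miR-669o-3p 1 in DKO (up to 2.05) and 0 in control (up to 3.97).

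The 8 were miR-25-3p, miR-3102-3p, miR-298-5p, miR-30d-5p, miR-28a-5p, miR-31-3p, miR-30c-5p and miR-99b-5p. In set 1 the total outside the region is enlarged by the 9 miRNAs overrepresented there, so passing 2-fold there depends on that total. Nearest to 2 in set 1 were miR-99b-5p, at 2.57 (0.524 to 7.64) in DKO and 3.02 (0.816 to 7.82) in control, and miR-28a-5p, at 2.74 in DKO. miR-25-3p had the highest ratio of mean shares (9.22): 17.4 (8.04 to 33.8) in set 1 DKO, 19.3 (11.4 to 31.0) in set 1 control, 3.83 (2.70 to 5.31) in set 2 DKO, 6.65 (5.30 to 8.26) in induced and 5.50 (4.30 to 6.96) in uninduced. Its intervals excluded 2 in all 5 pools. miR-28a-5p stood at 3.29 (2.16 to 4.82) in set 2 DKO, 5.08 (3.91 to 6.51) in induced and 3.94 (2.94 to 5.19) in uninduced, but had 1 read in set 1 DKO and 3 in set 1 control. miR-31-3p stood at 2.35 to 7.07 on 18S over the 5 pools. miR-31-5p, from the other arm of the same hairpin, was not among the 8. On 18S it stood at 0.895 (0.511 to 1.46) in set 1 DKO, 1.68 (1.26 to 2.19) in set 1 control, 0.945 (0.842 to 1.06) in set 2 DKO, 0.724 (0.668 to 0.784) in induced and 0.662 (0.608 to 0.719) in uninduced.

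**Figure D5:**
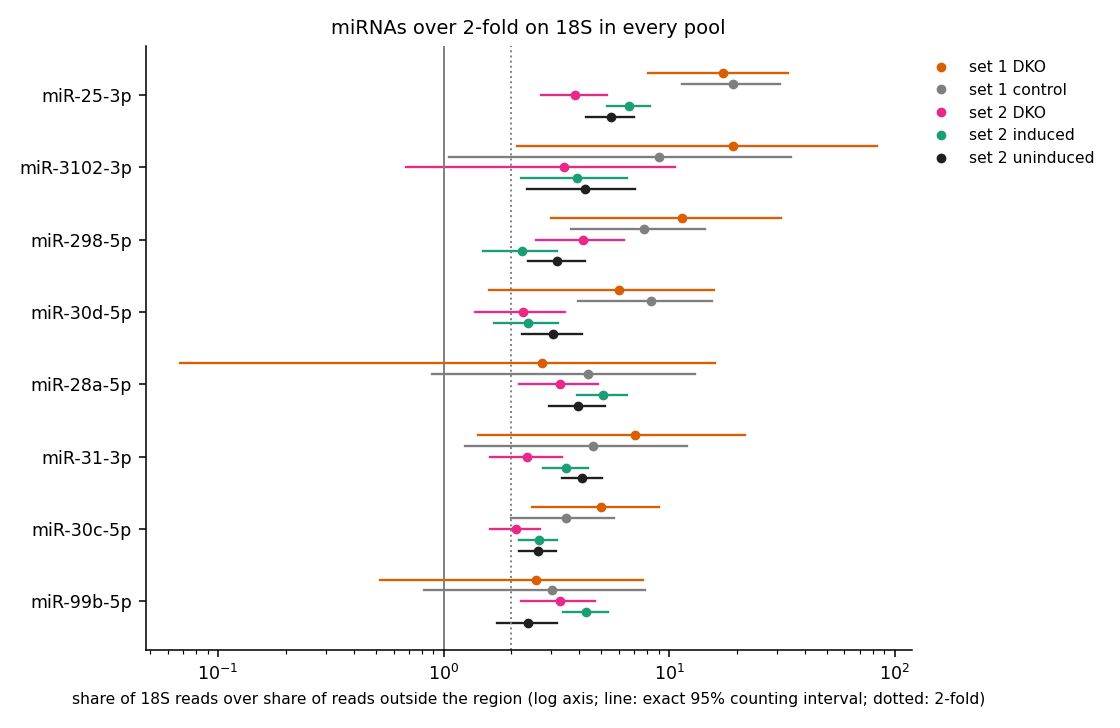
Share of a miRNA among 18S reads over its share among reads outside the region (log axis) for the 8 miRNAs past 2-fold in every pool, as 1 point per pool with its exact 95% counting interval; the solid line marks 1 and the dotted line 2. All points lie right of 2; intervals reach below 1 for miR-28a-5p and miR-99b-5p in the set 1 pools and for miR-3102-3p in set 2 DKO.

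The miRNAs with the most reads differed in how 18S compared with the other targets. In set 2, miR-21a-5p stood at 1.46 (1.32 to 1.60) in DKO, 1.56 (1.46 to 1.67) in induced and 1.62 (1.52 to 1.73) in uninduced, and miR-125b-5p at 1.49 to 1.56. miR-16-5p stood at 1.60 to 2.03 in set 2, and miR-205-5p at 1.01 in DKO, 0.908 in induced and 0.937 in uninduced. In set 1 miR-205-5p stood at 4.08 (3.03 to 5.39) in DKO and 3.21 (2.48 to 4.10) in control. In the same order miR-16-5p stood at 3.57 and 3.86, and miR-21a-5p at 1.84 and 2.56. miR-125b-5p stood at 1.63 (0.595 to 3.57) in set 1 DKO and 4.36 (2.99 to 6.15) in set 1 control. In set 2 DKO, 9 epidermal miRNAs (miR-31, miR-21a, miR-205, miR-203 and the miR-23, miR-27 and miR-24 group) held 46.4% of 18S reads against 43.7% of reads outside the region. They held 33.3% against 32.5% in induced and 34.7% against 33.7% in uninduced. In set 1 they held 36.7% against 25.3% in DKO and 40.6% against 17.6% in control. The 9 miRNAs overrepresented in set 1 held 27.5% of reads outside the region in set 1 DKO and 36.8% in set 1 control, but 0 and 1 reads on 18S. Their reads enlarge the total outside the region in set 1. Ratios of 18S over that total therefore run higher there for all other miRNAs, the 8 above included. Of all reads they held 27.7% in set 1 DKO and 37.5% in set 1 control, so the 18S ratio of 1.49 carries that difference too. The let-7 family held 6.65% against 9.88% in set 2 DKO, 5.14% against 9.51% in induced and 5.50% against 10.00% in uninduced. In set 1 the family held 3.64% against 6.00% in DKO and 4.65% against 4.11% in control.

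Of the named miRNAs low in the region, miR-203-3p, which drives differentiation of keratinocytes, had 0 reads in set 1 DKO, 3 in set 1 control, 17 in set 2 DKO, 26 in induced and 27 in uninduced. On 18S alone its share over that outside the region was 0.60 (0.124 to 1.76; 3 reads) in set 1 control, 0.288 (0.153 to 0.494) in set 2 DKO, 0.287 (0.177 to 0.439) in induced and 0.239 (0.156 to 0.350) in uninduced. Region shares run lower, at 0.141 to 0.234 in the 4 pools with reads, because the stack adds to the region's total. miR-320-3p (27 reads in all) and miR-297a-5p (25 reads) were the next lowest.

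Between pools, the makeup of 18S followed that of the other targets for most miRNAs. In set 2 DKO over uninduced, 7 of 74 miRNAs (9.46%) were past 2-fold higher within 18S and 7 (9.46%) past 2-fold lower; over targets outside the region 5 and 8 of the 74 were. miR-24-3p held 2.66% of 18S reads in DKO and 0.757% in uninduced, a ratio of 3.51 (2.53 to 4.93) against 2.04 (1.97 to 2.12) outside the region. miR-27b-3p stood at 3.64 (2.52 to 5.32) against 3.03, miR-23b-3p at 3.32 (2.38 to 4.66) against 3.49 and miR-205-5p at 2.26 (1.85 to 2.77) against 2.10. Lower were 4 members of the miR-200 family, miR-29a-3p (0.350, 0.242 to 0.495, against 0.332), miR-193a-3p (0.396, 0.206 to 0.711, against 0.320) and miR-669o-3p.

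In induced over uninduced, 3 of 88 miRNAs (3.41%) were past 2-fold higher within 18S and 1 (1.14%) past 2-fold lower; over targets outside the region 3 and 0 of the 88 were. miR-200a-3p and miR-200b-3p were also past 2-fold higher outside the region, as given above. miR-34a-5p had 26 reads in induced and 10 in uninduced (2.69, 1.26 to 6.26), against 1.05 outside the region. miR-33-5p had 8 reads in induced and 25 in uninduced (0.331, 0.129 to 0.758), against 0.981 outside. In set 1 DKO over control, 11 miRNAs could be compared, of which 0 were past 2-fold higher and 1 lower (9.09%), miR-125b-5p with 6 reads in DKO and 33 in control (0.405, 0.139 to 0.979, against 1.09 outside). Over the whole region, where the stack weighs on all shares, 6 of 16 miRNAs (37.5%) were past 2-fold higher and 0 lower in set 1 DKO, and outside the region 0 of the 16 were past 2-fold either way. In set 2 DKO 7.59% of 79 were higher and 15.2% lower, and in induced 3.23% of 93 higher and 1.08% lower. The set 2 comparisons share the uninduced pool.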

How the data were processed

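The deposited files hold positions rather than counts or signals, a unit of another kind: each entry of the authors' files is 1 chimeric read with chromosome, start, end and strand of its target, a 4-base barcode and the miRNA. The submitters' processing notes name mm10 with bedtools, Novoalign and cutadapt; versions and the handling of reads that map to several copies are not given in the sources used here. Starts count from 0 in the files and were raised by 1. Chimeric reads were counted as deposited with Python 3.11.15, pandas 2.3.3 and SciPy 1.17.1. Shares have Clopper-Pearson 95% intervals and ratios of shares conditional exact intervals. A miRNA counted as higher or lower past 2-fold with at least 20 reads. Positions are midpoints of the target part in bins of 50 bases from the first base of 18S. The upper limit given for a count of 0 is that of its exact interval. The share and ratio code was checked on simulated data.

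The members, lists, miRNAs and alternatives were chosen with earlier results of these data known. Named miRNAs are the 12 that led by mean share of the region's reads, the 5 members of the miR-200 family, and per direction the 3 largest ratios of region over rest among those past 2-fold in all 5 pools; the order of these by ratio of mean shares was chosen after the values were seen, as were the division into stack and 18S and the positions by miRNA. Named positions are the 8 leading bins. Of 33 miRNAs looked up in the RefSeq table (GRCm38.p6), 29 had a mature sequence; miR-5099, miR-30b-5p, miR-135b-5p and miR-30d-5p had none. Alternatives counted each position once, or left out reads shared within the lane, marked read names, 9 miRNAs, 1 strand, the miR-200 family or the stack, or changed bins, minimum or fold. The 9 miRNAs are miR-5099, miR-6380, miR-1195, miR-7667-5p, miR-3473b, miR-3470a, miR-3470b, miR-706 and miR-709, of which miR-6380 and miR-5099 were added from their shares in these data. By read names, each set ran in a single lane, so set and run cannot be told apart.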

Additional observations from a re-analysis of the deposited data

Results flagged for a closer look

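The DKO pools of the 2 sets differed from their controls in opposite directions for 5 measures, and the difference between the sets was not tested. The upstream stack stood at 0.456 in DKO over control of set 1 and at 1.16 in DKO over uninduced of set 2. miR-5099 within the stack stood at 0.446 in set 1 and 1.99 in set 2, and its share of the region's reads at 0.633 and 2.23. With each position, strand and miRNA counted once, the stack turned to 1.14 in set 1 and 0.904 in set 2. miR-5099 in the stack turned to 1.42 in set 1 but did not change direction in set 2. The directions that turned depend on how crowded positions are counted. Reads on 18S stood at 1.49 in set 1 and 0.778 in set 2. miR-21a-5p as a share of the region's reads stood at 1.94 (21 reads in DKO, 51 in control) in set 1 and 0.73 in set 2; within 18S alone its set 1 value was 0.917 (0.524 to 1.55). The controls of the sets are different cells and the sets ran in different lanes.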

How the results depend on the processing

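No paired analysis was possible because the files pool each group's libraries without library names, and leaving out a library was not run for the same reason. Of 234 alternative values of the main results, 110 stayed within the spread of the value reported or within 1.5 times a count, 119 moved and 5 changed direction; of 138 others, 122 stayed, 15 moved and 1 changed direction. The 8 miRNAs over 2-fold on 18S stayed above 1 in 120 of 120 alternative values and past 2 in 117. These miRNAs had been chosen for being past 2-fold in all 5 pools, so the count is no independent check of them. Their alternatives only counted each position once, or left out shared reads or marked read names. Marked read names did not occur among the region's reads in set 2. Leaving out the miRNAs overrepresented in set 1 was not run for these ratios. Where no cause is given below, the cause was not tested. Values over several pools run set 1 DKO, set 1 control, set 2 DKO, induced, uninduced.

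The share of the region was 0.999%, 0.741%, 1.93%, 1.78% and 2.33% with each position, strand and miRNA counted once. Without reads shared within the lane it was 1.11% (set 1 DKO), 2.58% (set 2 DKO), 2.46% (induced) and 3.13% (uninduced), and without marked read names 2.22% in set 1 control. Without the 9 miRNAs, which include miR-5099 and so most of the stack, it was 1.11%, 0.934%, 2.29%, 2.41% and 3.09%. Over plus-strand targets alone, a smaller total, it was 2.86%, 4.08%, 5.62%, 4.95% and 6.17%. Without the miR-200 family it was 2.87% (induced) and 3.53% (uninduced), and on 18S alone 0.734%, 0.492%, 1.90%, 1.76% and 2.44%.

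The region's ratio in set 1 DKO over control changed direction when each position was counted once (1.35), without the 9 miRNAs (1.19) and on 18S alone (1.49), and was 0.545 without shared reads. For set 2 DKO over uninduced it was 0.829 counted once, 0.827 without shared reads, 0.740 without the 9 miRNAs and 0.778 on 18S alone. For induced over uninduced it was 0.765 counted once and 0.724 on 18S alone. The stack's ratio changed direction when counted once, to 1.14 in set 1 and 0.904 in set 2 DKO, as did that of miR-5099 in set 1 (1.42); counting once removes the barcodes that fill the leading positions. Without shared reads the stack stood at 0.179 (set 1 DKO), 1.06 (set 2 DKO) and 1.11 (induced).

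The leading bin of the region held 16.1%, 18.5%, 10.7%, 7.59% and 8.75% when counted once. Without the 9 miRNAs it held 12.8%, 12.3%, 11.4%, 21.3% and 16.3%, in bins of 25 bases 44.7%, 66.4%, 25.9%, 18.8% and 15.7%, and without the stack 13.6%, 13.8%, 12.6%, 8.75% and 10.0%. Without shared reads it held 24.3% (set 1 DKO), 22.4% (set 2 DKO), 24.5% (induced) and 17.4% (uninduced). By start instead of midpoint it held 72.2% (set 1 control), 28.4% (set 2 DKO), 17.9% (induced) and 14.1% (uninduced), and without the miR-200 family 34.6% (induced) and 27.9% (uninduced).

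The miR-200 family's share of the region was 4.59% (set 1 control), 6.61% (induced) and 4.95% (uninduced) when counted once, 4.45%, 5.16% and 4.05% without the 9 miRNAs, and 5.28%, 6.42% and 4.81% on 18S alone. Without shared reads it was 0% (set 2 DKO), 5.14% (induced) and 4.12% (uninduced).

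miRNAs past 2-fold higher in the region than outside numbered 15, 6, 12 and 13 (all but uninduced) at a minimum of 50 reads, 51, 36, 53 and 43 (all but set 1 DKO) counted once, and 40, 61, 35, 51 and 42 on 18S alone. At 1.5-fold they were 32 (set 2 DKO), 42 (induced) and 43 (uninduced), and where the interval also excluded 1 they were 13 (set 1 DKO), 11 (set 2 DKO) and 14 (induced). Lower ones numbered 61 (set 1 DKO) and 172 (set 1 control) at 50 reads, 274 (set 1 control), 81 (set 2 DKO) and 88 (uninduced) counted once, and 17, 60, 52, 58 and 47 where the interval also excluded 1. Within the region, miRNAs higher in set 1 DKO than in control numbered 1 at 50 reads, 11 without shared reads, and 0 counted once and on 18S alone. Those lower numbered 1 without shared reads, 2 counted once and 1 on 18S alone. In set 2 DKO the lower ones numbered 7 at 50 reads, 6 counted once and 7 on 18S alone, and in induced 0 at 50 reads.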

Other observations

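miR-712-5p and miR-7068-5p were the other miRNAs with over 99% of their reads in a single window as long as the region (99.6% and 99.1%), neither of them in this region; let-7e-5p followed with 48.6%. For 39 of the 163 miRNAs compared, the chromosome 17 region was the window with the most reads.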
